A study of Homo sapiens with 3 samples.

Results

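The genes described here are the 8 human genes that encode the main m6A readers, YTHDC1, YTHDC2, YTHDF1, YTHDF2, YTHDF3, IGF2BP1, IGF2BP2 and IGF2BP3. The rule uses what their proteins do and no measured value, and it takes them out of 20162 protein-coding genes of GENCODE release 44 on 24 chromosomes (hg19). The list was nevertheless chosen with earlier results of these data known. For each one, the peaks within the gene or 1000 bases around it were counted, and where there was none the distance to the nearest peak was measured. Of 6368 peaks in all, 6 met this rule.

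The peaks came from chromatin immunoprecipitation followed by sequencing (ChIP-seq) with an antibody against YTHDC1, carried out on A549, a human lung adenocarcinoma cell line with epithelial features. The 3 replicates form 1 group, and no second treatment, time or genotype was analysed here. They were pooled before peaks were called, so a single peak set describes each gene, the replicates' variation cannot be seen in it, and the depth behind a peak is unknown. Each peak has a width and a −log10 q, where q is a false discovery rate given to the called region. The deposited column carries no name and is read here as this quantity, from its range and the stated thresholds. Peaks were called in broad mode. Whether the value is that of a region's top or an average over its width is not stated in the sources used here. A peak with a higher value is called stronger here, and a q of 0.05 is a −log10 q of 1.30.

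N6-methyladenosine (m6A) is an internal mark of messenger RNA that methyltransferases write, demethylases erase and reader proteins bind. The YTH proteins hold the methylated base in a pocket of their shared YTH domain. YTHDC1 is the nuclear member and acts in splicing, export and chromatin-associated RNA, YTHDC2 is an RNA helicase needed in the germ line, and YTHDF1, YTHDF2 and YTHDF3 are cytoplasmic proteins tied to translation and decay of m6A RNA. The IGF2BP proteins are RNA-binding proteins with KH domains that stabilise their targets, and they are known from fetal tissue and from tumours.

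The DNA under the peaks differed among the readers, and stretches of 3 peaks are shown for that reason, read from the hg19 (GRCh37) genome on the strand of each gene. Capitals mark matches on either strand to GGACT (a form of the m6A consensus in RNA), its shorter core GGAC, the CCAAT box and the GC box, GGGCGG. The first stretch is from intron 1 of YTHDF2 (chr1:29063660-29063946, + strand), the next is the central 300 bases of the peak after the start of IGF2BP1 (chr17:47075791-47076090, + strand), and the last is the centre of the intronic peak of IGF2BP3 (chr7:23374079-23374378, − strand).
YTHDF2 intron 1: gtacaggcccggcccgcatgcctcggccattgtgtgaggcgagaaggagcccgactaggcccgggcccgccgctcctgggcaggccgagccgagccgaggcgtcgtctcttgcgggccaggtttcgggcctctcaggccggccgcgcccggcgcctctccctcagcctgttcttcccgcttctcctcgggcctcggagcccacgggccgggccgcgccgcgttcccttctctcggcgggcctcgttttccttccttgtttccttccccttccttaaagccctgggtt
IGF2BP1 after the start: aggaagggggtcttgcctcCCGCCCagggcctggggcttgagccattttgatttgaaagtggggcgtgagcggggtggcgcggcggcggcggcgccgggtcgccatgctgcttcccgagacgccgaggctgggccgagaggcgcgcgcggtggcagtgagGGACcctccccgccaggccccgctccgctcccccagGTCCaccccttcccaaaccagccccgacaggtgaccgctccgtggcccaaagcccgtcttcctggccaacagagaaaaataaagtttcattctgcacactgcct
IGF2BP3 intron 10: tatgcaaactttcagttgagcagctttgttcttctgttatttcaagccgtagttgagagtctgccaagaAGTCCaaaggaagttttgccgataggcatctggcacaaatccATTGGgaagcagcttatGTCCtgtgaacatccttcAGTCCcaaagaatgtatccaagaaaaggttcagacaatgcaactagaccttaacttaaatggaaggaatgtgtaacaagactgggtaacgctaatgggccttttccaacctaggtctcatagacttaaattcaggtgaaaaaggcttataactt
The YTHDF2 stretch had 32 CG dinucleotides in 287 bases and a GC content of 71.1%, and none of the motifs. It is the end of that peak and not its centre. The central 300 bases of the YTHDF2 peak held GGAC at 2 places and GGGCGG at 1, the same counts as at the IGF2BP1 peak after the start. The stretch after the IGF2BP1 start had 26 CG dinucleotides and 68.3% GC. The IGF2BP3 stretch stood apart with 3 CG dinucleotides and 41.0% GC, and it alone of the 3 held GGACT, at 2 places, and CCAAT, at 1. Its GGACT and GGAC matches were all on the strand opposite the gene, with 0 on the gene's own strand, which has the letters of its RNA.

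A peak by this rule was present at 4 of the 8 readers (50.0%, 95% Wilson interval 21.5% to 78.5%), namely YTHDF2, YTHDF3, IGF2BP1 and IGF2BP3, against 25.1% of all protein-coding genes. At an annotated start, meaning within 200 bases of one, 3 of 8 had a peak (37.5%, Wilson interval 13.7% to 69.4%), against 15.7% of all protein-coding genes. Both shares of all genes lay inside the readers' intervals, which cover counting error only, and with 8 genes a difference of this size was not detectable. Longer genes held a peak more often, at 23.4% of genes of 10 to 30 kb, 28.5% of 30 to 100 kb and 31.8% of 100 to 300 kb. YTHDF1 is in the first of these classes, IGF2BP2 and IGF2BP3 are in the last, and the other 5 readers are in the middle one.

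**Figure D1:**
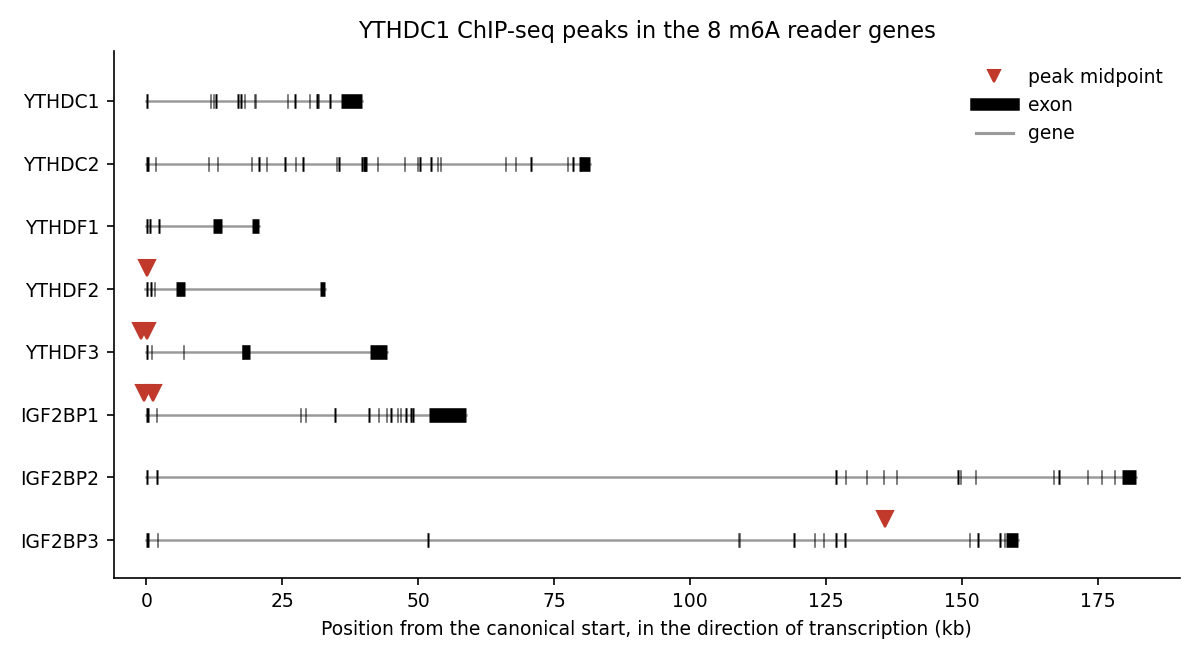
Exons (black) and gene extent (grey) of the 8 readers by position from the canonical start in kb, with the midpoint of each peak in the gene or 1000 bases around it (red). The peaks of YTHDF2, YTHDF3 and IGF2BP1 lie over the start or within 1500 bases of it, and that of IGF2BP3 lies about 136 kb into the gene.

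Among the cytoplasmic YTH readers, YTHDF2 (chr1:29063133-29096287, + strand), which recruits the deadenylation machinery to m6A RNA, had the strongest peak of the 8 genes. It ran 229 bases before to 494 bases after the canonical start (chr1:29063223-29063946) over exon 1 and the beginning of intron 1, with a −log10 q of 1.267 (q of 0.0541). At 724 bases it was wider than 92.8% of all peaks, while its −log10 q was above that of 45.9%. The same stretch overlaps a lncRNA gene on the other strand, ENSG00000289291, and the peak cannot be assigned to one of them.

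YTHDF3 (chr8:64081112-64125344, + strand), which acts with the other YTHDF proteins on translation and decay, had 2 peaks. The stronger one covered the canonical start, from 17 bases before to 385 bases after it, with a width of 403 bases and a −log10 q of 1.065. The lncRNA YTHDF3-DT, on the other strand, also has an annotated start within 200 bases of this peak, which cannot be assigned to one of them. The weaker one lay 739 bases before the gene, was 226 bases wide, the smallest width in the whole set, and had a −log10 q of 0.735, above 4.5% of peaks. It lies over the far end of the divergent lncRNA YTHDF3-DT, and its GC content was above that of only 1.1% of peaks, with a ratio of observed to expected CG of 0.18. The peak at the start had a GC content of 68.2% and a ratio of 0.89, against a median ratio of 0.69 over all peaks.

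IGF2BP1 (chr17:47074747-47133507, + strand), a stabiliser of MYC and other messenger RNAs, also had 2 peaks, and they stood on either side of its start with none over it. The one before the start was 539 bases wide, ended 99 bases before the canonical start and had a −log10 q of 0.743. The one after it, in intron 1, was 389 bases wide, began 999 bases into the gene and had a −log10 q of 1.044. Such a pair within 1500 bases of an uncovered canonical start, a pattern counted after these values were seen, occurred in 1 of the 8 readers and in 0.451% of protein-coding genes. The peak before the start also overlaps a lncRNA gene on the opposite strand, ENSG00000250838. With 2 or more peaks, YTHDF3 and IGF2BP1 made up 2 of the 8 readers, against 4.32% of all protein-coding genes. In each of them 1 peak lay outside the gene, 739 bases before YTHDF3 and 99 bases before IGF2BP1. This count of readers therefore rests on the flank of 1000 bases, without which each had 1 peak.

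**Figure D2:**
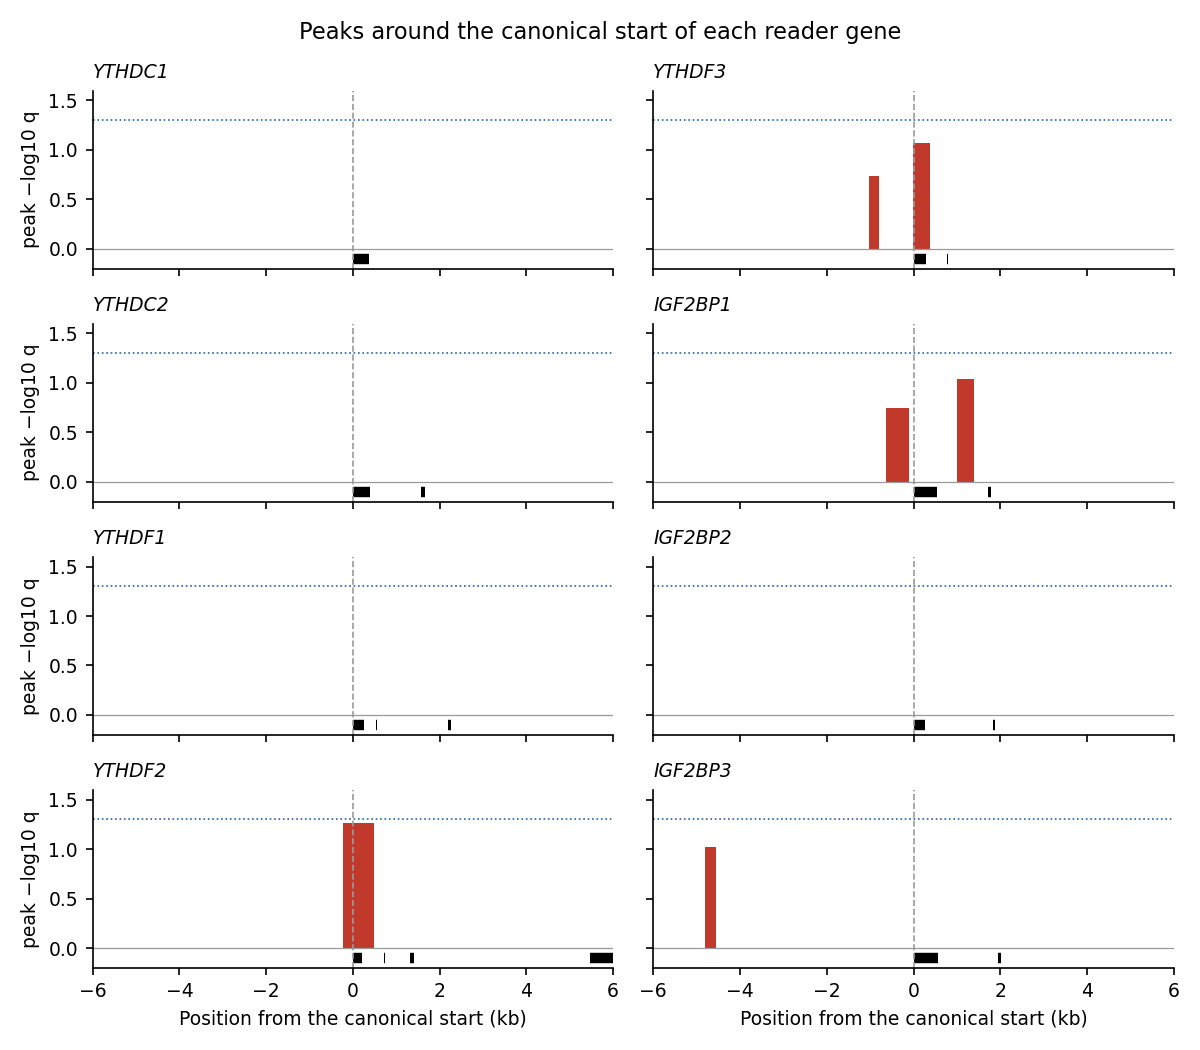
Peaks within 6 kb of the canonical start of each reader; the width of a bar is the peak's width, its height is −log10 q, black blocks are exons, the dashed line is the start and the dotted line is a q of 0.05. Every bar stays under the dotted line, and YTHDC1, YTHDC2, YTHDF1 and IGF2BP2 have none in this window.

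IGF2BP3 (chr7:23349828-23510110, − strand), an oncofetal relative of IGF2BP1, had its peak far from the start, in intron 10 (chr7:23373917-23374539), 11241 bases from the nearest annotated start. It was 623 bases wide with a −log10 q of 1.143 and a GC content of 40.6%, above that of 10.2% of peaks. Just outside the rule, a peak with a −log10 q of 1.024 lay 4549 bases upstream of the gene, inside the lncRNA ENSG00000289109. Another lay 10582 bases downstream at a start of MALSU1, a mitochondrial ribosome assembly factor, with a −log10 q of 1.494.

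All 6 peaks were below the median −log10 q of 1.332 over all 6368 peaks. None of the 8 readers had a peak with a q under 0.05, which allows a share of up to 37.5% by a limit of 3 counts and up to 32.4% by the Wilson interval, against 14.3% of all protein-coding genes. Counted over genes with a peak alone, this was 0 of the 4 readers, against 57.1% of the 5063 protein-coding genes with one. In width the 6 peaks were not low: their median was 471 bases, against 348 bases over all peaks, and 5 of the 6 were wider than that. Width and value may not be independent in broad calling, and their relation was not tested.

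**Figure D3:**
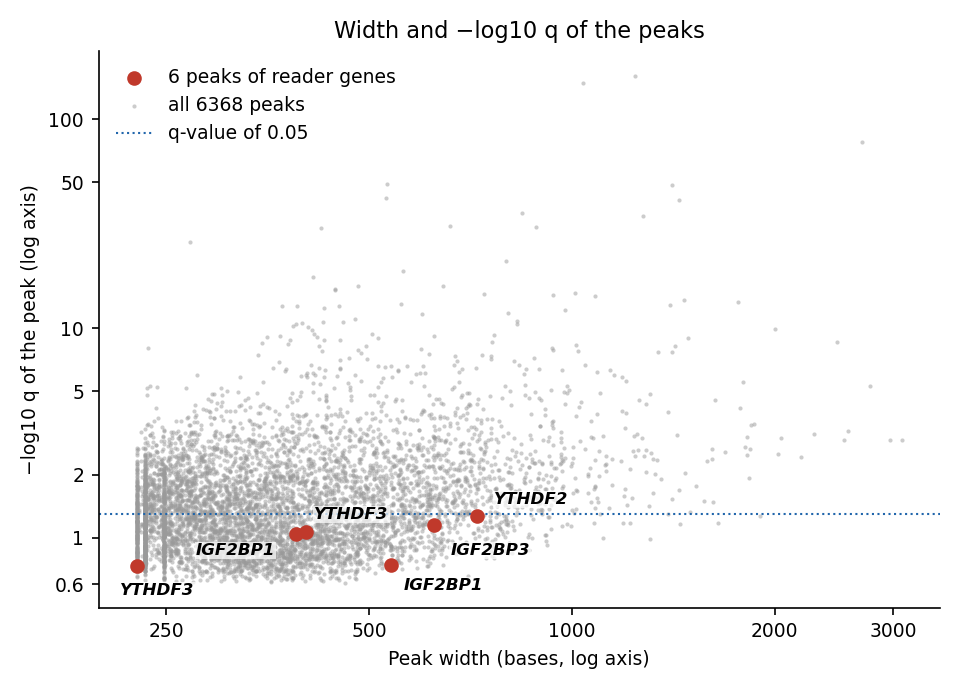
Width in bases and −log10 q of the 6 reader peaks (red) and all 6368 peaks (grey), both axes on a log scale, with a dotted line at a q of 0.05. The reader peaks lie between 0.735 and 1.267, under the line, over widths of 226 to 724 bases.

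The other 4 readers had no peak. YTHDF1 (chr20:61826781-61847491, − strand), which promotes translation of m6A RNA, was the nearest to one, at 17305 bases from a peak in the lncRNA ENSG00000231977 with a −log10 q of 1.532, and 13.1% of the 15099 protein-coding genes without a peak were nearer. IGF2BP2 (chr3:185360918-185542830, − strand), named for binding IGF2 messenger RNA, lay 112616 bases from a peak at the start of TRA2B, a splicing regulator, with 47.7% nearer. The median distance over genes without a peak was 126.1 kb, with quartiles of 39.2 kb and 373.5 kb, so that IGF2BP2 lay near the median and YTHDF1 below the lower quartile.

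YTHDC1 itself, the protein that was immunoprecipitated (chr4:69176105-69215808, − strand), lay 909354 bases from the nearest peak, and 90.3% of genes without a peak were nearer. That peak, with a −log10 q of 4.258, overlapped no annotated gene, and the nearest protein-coding start was that of CENPC, a centromere protein, 144658 bases from it. YTHDC2 (chr5:112849391-112930982, + strand) lay 1352464 bases from a peak with a −log10 q of 2.37, and 93.8% were nearer. That peak overlapped EPB41L4A, which encodes a cytoskeletal FERM-domain protein, and its antisense lncRNA EPB41L4A-AS1, 258250 bases from the EPB41L4A start. Their starts sat in stretches without a peak of 3.50 Mb and 3.02 Mb, against 0.79 Mb for IGF2BP2 and 0.26 Mb for YTHDF1. On chromosome 4, 15.9% of protein-coding genes had a peak, and on chromosome 5 it was 33.0%.

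The 250 bases before the first start of YTHDC1 (chr4:69215809-69216058, − strand) and of YTHDF1 (chr20:61847492-61847741, − strand) are shown because no peak was called there, with capitals as above.
YTHDC1 before the start: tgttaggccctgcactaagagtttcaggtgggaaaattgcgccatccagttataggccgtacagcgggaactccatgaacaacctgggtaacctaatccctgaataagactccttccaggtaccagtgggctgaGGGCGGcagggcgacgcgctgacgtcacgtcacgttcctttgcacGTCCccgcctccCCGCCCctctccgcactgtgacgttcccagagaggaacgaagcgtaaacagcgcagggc
YTHDF1 before the start: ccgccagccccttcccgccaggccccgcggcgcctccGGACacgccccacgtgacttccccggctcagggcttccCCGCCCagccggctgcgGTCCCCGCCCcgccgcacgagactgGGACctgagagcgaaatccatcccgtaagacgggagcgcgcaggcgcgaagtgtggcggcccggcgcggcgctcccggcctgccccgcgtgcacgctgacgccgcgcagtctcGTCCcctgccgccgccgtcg
The YTHDF1 stretch had 40 CG dinucleotides and 78.0% GC, more than the YTHDF2 stretch under a peak, and the YTHDC1 stretch had 18 and 58.8%. Both held GGGCGG, which was in 6 of the 8 reader promoters (250 bases before to 50 after the canonical start), against 60.9% of all promoters. GGAC was in 7 of 8 reader promoters, against 90.3% of all, and GGACT was in 3 of 8, against 45.1%. CCAAT was in 3 of 8, against 35.9% of all promoters, while TATAAA and the ETS motif ACTTCCGG were in 0 of 8, against 9.8% and 6.09% of all, each motif being searched on both strands. The GC content of the reader promoters ran from 56.3% in IGF2BP3 to 80.7% in IGF2BP2, against a median of 63.3% over all promoters, and both ends of that range belong to genes without a peak at the start.

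Within 1 Mb of the canonical start, YTHDF1 had 20 peaks, IGF2BP1 17, YTHDF2 10, IGF2BP2 7, IGF2BP3 6, YTHDF3 5, YTHDC1 2 and YTHDC2 0, against a median of 6 over all protein-coding genes. These counts and the median include a gene's own peaks, which were 2 each for YTHDF3 and IGF2BP1 and 1 each for YTHDF2 and IGF2BP3. The order was not that of the readers' own peaks. YTHDF1 had the highest count of the 8 and no peak of its own, and YTHDF3 had 2 peaks of its own in a count below the median.

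**Figure D4:**
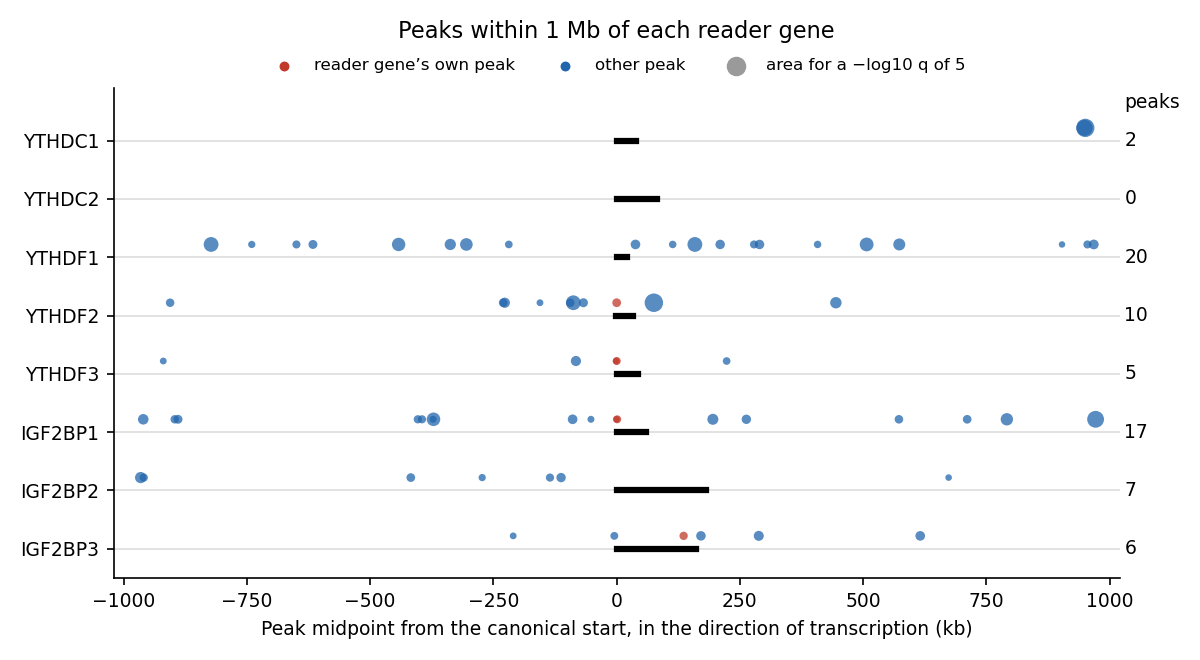
Midpoints of all peaks within 1 Mb of the canonical start of each reader, in kb in the direction of transcription, with area in proportion to −log10 q, the reader's own peaks in red, others in blue and the gene in black. The numbers at the right count the peaks, from 20 at YTHDF1 to 0 at YTHDC2.

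Parts of some readers are repeated elsewhere in the genome. Of the stretches of 31 bases in the canonical exons, 40.7% in YTHDF2, 36.2% in IGF2BP3 and 35.7% in IGF2BP2 occur more than once, so that a read of that length could not be placed uniquely there. The YTHDF2 peak held 0.0% of such stretches and the IGF2BP3 peak 4.0%. Over all 6368 peaks the median share was 0.0% and the mean 2.5%, and 17.3% of peaks held any such stretch. The 2 peaks within 1 Mb of YTHDC1, the nearer of which sets its distance, held 17.0% and 22.5%, and the part of these repeats in the peaks was not tested. The pseudogenes YTHDF1P1, YTHDF2P1 and YTHDF3P1 had 0 peaks.

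Beside the readers stood 3 other lists of the m6A pathway, described here by their counts. Of the writers and erasers, 5 of 13 had a peak (38.5%, against 25.1% of all protein-coding genes) and 3 of 13 had one with a q under 0.05 (against 14.3%). METTL3, the catalytic methyltransferase, had a −log10 q of 20.901, METTL16, which methylates U6 RNA, had 3.769, and WTAP and METTL14, subunits of the METTL3 complex, had 1.534 and 1.206. The midpoints of the METTL3 and METTL16 peaks lay 10344 and 95719 bases after the canonical start. The METTL3 peak was at no annotated start, while METTL16 had 2 peaks, each within 200 bases of an annotated start. At an annotated start, 2 of 13 had a peak (15.4%, against 15.7% of all protein-coding genes). The writer subunit CBLL1 and the demethylase FTO had no peak.

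Of other m6A-binding proteins, 4 of 12 had a peak (33.3%) and 2 of 12 had one with a q under 0.05, both near the shares of 25.1% and 14.3% over all protein-coding genes. The highest −log10 q was 1.47 for SND1, 1.436 for HNRNPC, 1.153 for the translation factor subunit EIF3A and 1.115 for HNRNPA2B1, and EIF3H and ELAVL1 had no peak. Of the partners of YTH proteins, 6 of 12 had a peak (50.0%, against 25.1% of all protein-coding genes) and 4 of 12 had one with a q under 0.05 (against 14.3%). The RNA helicase MOV10 had 2.157, the export receptor NXF1 1.812, the splicing factor SRSF3 1.669 and the exonuclease XRN1 1.482, and CNOT1 and CPSF6 had no peak. The midpoint of that NXF1 peak lay 13655 bases after the canonical start. At an annotated start, 3 of 12 other m6A-binding proteins (25.0%) and 5 of 12 partners (41.7%) had a peak, against 15.7% of all protein-coding genes. With 0 of 8, the readers were the one list of the 4 without a peak under a q of 0.05, and this difference was not tested.

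A peak set measures occupancy and not expression, so these peaks give no direct check of the cell line. Of 6 epithelial marker genes, 4 had a peak (66.7%, against 25.1% of all protein-coding genes), with a −log10 q of 3.082 for KRT8, 2.605 for KRT7, 1.813 for KRT18 and 1.414 for EPCAM, and CDH1 and KRT19 had none. The midpoint of that KRT18 peak lay 4268 bases after the canonical start, past the end of a gene 4036 bases long. Of 6 markers of lymphoid, fibroblast and erythroid cells, 1 had a peak (16.7%, near the share of all protein-coding genes), COL1A1 at 1.333.

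**Figure D5:**
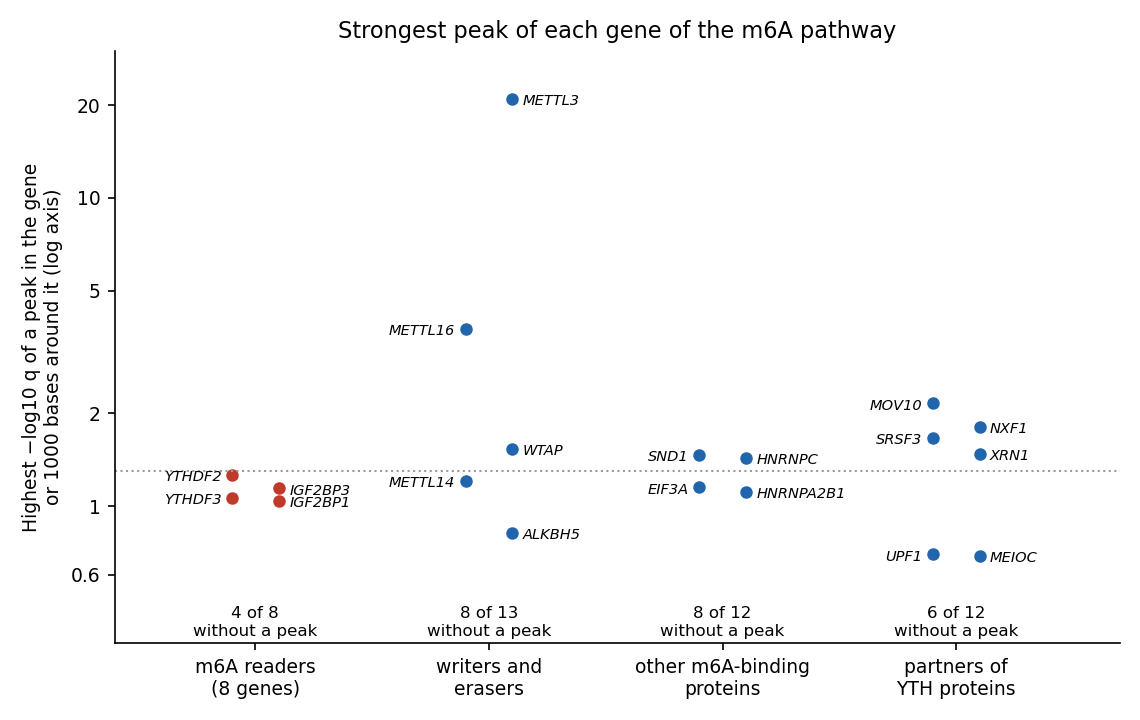
Highest −log10 q (log axis) of a peak in each gene or 1000 bases around it, for the readers (red) and 3 other lists (blue), with a dotted line at a q of 0.05 and the genes without a peak counted at the foot. The readers lie between 1.044 and 1.267, and METTL3 is at 20.901.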

How the data were processed

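Peaks of 3 pooled YTHDC1 ChIP-seq replicates were used as deposited, in hg19 coordinates. The deposited value of each peak was read as a −log10 q-value, which the file does not name. The authors called broad peaks with a cutoff of 0.25 and a q of 0.1, and no control library is named in the sources used here. Their methods name Bowtie2, while the submitters' processing notes name BWA, deepTools and MACS2. How nearby peaks were merged is not given in the sources used here, and depth is unknown.

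Genes were taken from GENCODE 44 lifted to GRCh37 and peaks overlapped with them in Python 3.11.15 with pandas 2.3.3 and numpy 2.4.6. Interval code was tested on simulated data. A peak belonged to a gene within 1000 bases of it and to a start within 200 bases. Of each other list, up to 4 genes with the highest peak and up to 2 without one, first in the alphabet, were named. The readers and lists were chosen with earlier results of these data known. With 1 pooled set, no test between samples was made. Alternatives were midpoints, other flanks and windows, canonical starts alone and stricter peaks. The sequence of 1 further peak is not reported here.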

Additional observations from a re-analysis of the deposited data

How the results depend on the processing

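The 4 readers with a peak stayed at 4 with peak midpoints in place of any overlap, with no flank and with a flank of 5000 bases. At these settings, in that order, 24.9%, 21.5% and 28.1% of all protein-coding genes had a peak. The 6 reader peaks stayed at 6 with midpoints, fell to 4 with no flank and rose to 7 with the wider flank. With peaks of q under 0.05 alone, the readers with a peak numbered 0, those with a peak at a start 0 and their peaks 0, against 14.3% of all protein-coding genes with a peak and 8.96% with one at a start. With the 3184 stronger peaks alone the 3 reader counts were again 0, 0 and 0, against 13.9% and 8.64% of all genes. Midpoints at starts left 2 readers, YTHDF2 and YTHDF3, against 10.8% of all genes. Windows of 500 and 1000 bases and canonical starts alone left 3, against 18.6%, 20.0% and 11.7% of all genes in that order. Replicates could not be left out in turn, since they were pooled before calling. No paired analysis was possible because there is 1 group. The peaks counted for the readers were thus all from the part of the set with a q of 0.05 or more, and none had replicates to set it against.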
